A study of Mus musculus with 4 samples.

Results

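The fibroblast growth factors (FGFs) and their receptors were followed in mammary tissue of mice with and without miR-21. The group was a fixed list of 10 genes, 5 ligands (*Fgf1*, *Fgf2*, *Fgf7*, *Fgf10*, *Fgf18*) and 5 receptors (*Fgfr1*, *Fgfr2*, *Fgfr3*, *Fgfr4*, *Fgfrl1*), chosen by name, and all 10 were found among the 22483 loci of the deposited table that carry a gene name. Poly(A) RNA came from whole mammary glands of 4 virgin mice aged 2 months and of mixed 129SV::FVB/N::C57BL/6 strain, 2 of genotype miR-21+/+ (wild type) and 2 of genotype miR-21-/-, which lack the microRNA in every cell and not only in the mammary epithelium. The table gives a single FPKM value for each genotype, a read count scaled by the length of the transcript and the size of the library, in which both mice are combined. How much 2 mice of a genotype differed cannot be seen, so that no difference below has a replicate check and no test was run. A difference of 1.5-fold or more is used below as a size limit and not as a test. The depth of the libraries is unknown. Poly(A) RNA does not measure the mature microRNA. The table lists *Mir21* in 1 locus with its host gene *Vmp1*, at 42.5 FPKM in wild-type and 68.2 FPKM in miR-21-/- glands, a log2 ratio of 0.68, and this value does not separate the microRNA from *Vmp1* and so does not check the genotype.

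FGFs are secreted signals that bind tyrosine kinase receptors together with heparan sulfate chains on the cell surface. In the mammary gland the ligands are made largely by the fat pad and stroma, and *Fgf7* and *Fgf10* act on the epithelial form of FGFR2, which is needed for the mammary bud and for the growth and branching of the ducts. Bound receptors signal through the RAS-ERK cascade, which switches on Ets factors such as *Etv4* and *Etv5*, the phosphatase *Dusp6* and the Sprouty and Spred inhibitors that dampen the signal. The Sprouty genes are among the known targets of miR-21, and the comparison below sets the ligands, the receptors and the other genes of the pathway in glands with the microRNA beside those in glands without it.

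A microRNA pairs with messenger RNAs through its seed, and the sequences are shown because they decide which genes of the pathway carry a match. The mature miR-21 strand (mmu-miR-21a-5p, 22 nt, RefSeq annotation of GRCm38.p6) is printed with its seed, bases 2 to 8, in capitals.
miR-21a-5p: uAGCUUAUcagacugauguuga
Its match in a transcript reads ATAAGCT (a 7mer-m8 site), or ATAAGCTA when an A follows (an 8mer site), and was searched on the transcribed strand only, in the longest 3′ UTR that GENCODE annotates for each gene in mm9. None of the 10 genes held such a site, none held the weaker 7mer-A1 match TAAGCTA, and none gained one when all annotated 3′ UTRs of each gene were joined. Their 3′ UTRs measured from 271 nt in *Fgf2* and 335 nt in *Fgf18* to 2799 nt in *Fgf10* and 3254 nt in *Fgf1*, so the annotation of *Fgf2* and *Fgf18* offered little sequence to search. Of 12830 named genes at a mean of 1 FPKM or more with an annotated 3′ UTR, 6.72% held an 8mer or 7mer-m8 site.

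Sites were found in other genes of the pathway. Among 69 other genes of the pathway at that level, 6 held an 8mer or 7mer-m8 site (8.70%), among them the feedback inhibitors *Spry1* and *Spry2*, the FGF binding protein *Fgfbp3*, the exchange factor *Sos2* and the kinase *Braf*. The sites of these 5 genes are shown in capitals with 11 bases of 3′ UTR on either side, as DNA in the direction of transcription.
Spry1 (8mer): taagtgcttaaATAAGCTAtatattaatct
Spry2 (8mer): acccacattgcATAAGCTAaagcagccaac
Fgfbp3 (8mer): cgggatggagaATAAGCTAgtcggctagtc
Braf (8mer): gatgtcaaccaATAAGCTAtttttaaaacc
Sos2 (7mer-m8): ctactgattaaATAAGCTcttaagaatta
In mm9 the sites lie on chromosome 3 from 37542795 to 37542802 (*Spry1*, plus strand), chromosome 14 from 106291715 to 106291722 (*Spry2*, minus strand), chromosome 19 from 36992846 to 36992853 (*Fgfbp3*, minus strand), chromosome 6 from 39556369 to 39556376 (*Braf*, minus strand) and chromosome 12 from 70685995 to 70686001 (*Sos2*, minus strand). A match of these letters is a description and does not show binding.

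The 10 genes kept nearly the same order of levels in both genotypes, and 9 of them were at a mean of 1 FPKM or more. *Fgfr1* was the most abundant at 51.2 FPKM in wild-type and 60.8 FPKM in miR-21-/- glands, followed by *Fgfrl1*, *Fgfr2* and *Fgf10* in that order in both. *Fgf2* and *Fgf1* changed places at ranks 5 and 6, and *Fgf18* and *Fgf7* at ranks 8 and 9. *Fgfr4* was last, under 1 FPKM. Because no spread between mice was available, it cannot be said which neighbours in this order differ beyond error.

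**Figure D1:**
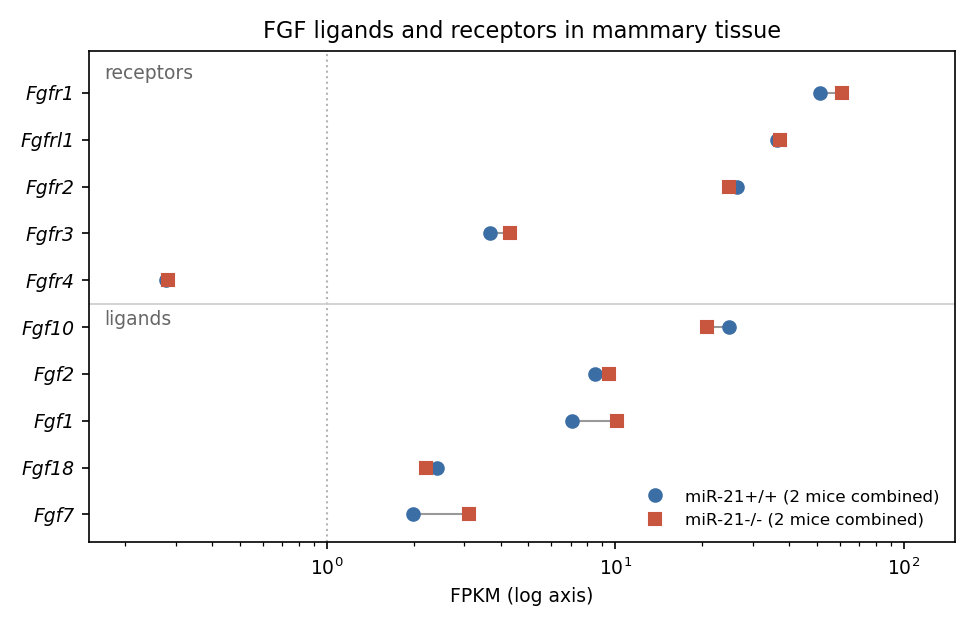
FPKM of the 5 receptors and 5 ligands in miR-21+/+ (circles) and miR-21-/- (squares) glands on a log axis, each symbol a deposited value that combines 2 mice, with a dotted line at 1 FPKM and no error bars because none can be computed. As deposited, *Fgf7* and *Fgf1* show the widest gaps, while the symbols of *Fgfr4* and *Fgfrl1* nearly coincide.

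By the deposited values the log2 ratios of the ligands spanned -0.25 to 0.65 and those of the receptors -0.08 to 0.25. *Fgf7*, the keratinocyte growth factor made by stroma, was at 1.98 FPKM in wild-type and 3.11 FPKM in miR-21-/- glands. This is 1.57-fold higher without miR-21, a log2 ratio of 0.65, and the only difference among the 10 genes that passed 1.5-fold. At this low level the ratio is sensitive to small amounts, and once 1 FPKM was added to both values before taking logs it was 0.46 and no longer passed. *Fgf1*, a ligand of all FGF receptors that is made by fat cells among others, was at 7.07 FPKM in wild-type and 10.1 FPKM in miR-21-/- glands. Its 1.43-fold difference, a log2 ratio of 0.52, was the next largest and stayed under the limit, and with both columns scaled to equal sums over all loci it turned to -0.11. *Fgf2*, basic FGF, was at 8.49 and 9.48 FPKM, a log2 ratio of 0.16.

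The other pair of ligands was lower without miR-21, both by less than 1.5-fold. *Fgf10*, the stromal ligand of the epithelial FGFR2, was the most abundant ligand at 24.7 FPKM in wild-type and 20.8 FPKM in miR-21-/- glands, a log2 ratio of -0.25. *Fgf18*, which signals mainly through FGFR3 and other mesenchymal receptor forms, was at 2.40 and 2.21 FPKM, a log2 ratio of -0.12. *Fgf7* and *Fgf10* share a receptor but had log2 ratios of opposite sign under every scaling tried, and *Fgf10* stood 12.4 times above *Fgf7* in wild-type and 6.69 times above it in miR-21-/- glands. The summed FPKM of the 5 ligands was 44.6 and 45.7. Within that sum the share of *Fgf10* was 55.3% in wild-type and 45.5% in miR-21-/- glands, and that of *Fgf1* was 15.8% and 22.1%. These ratios and shares within a column do not depend on how the columns are scaled.

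Some ligand values share their locus with other transcripts. In mm9 the table lists *Fgf7* on chromosome 2 from 125684954 to 125971987, a span of 287 kb that also covers *Galk2*, while the annotated gene runs from 125860394 to 125916921 on the plus strand. *Galk2*, a galactokinase family gene listed at the same span, was at 10.4 FPKM in both genotypes. A gene on the opposite strand, 4930525F21Rik, spans all of *Fgf7* and was listed at 0 FPKM in both. *Fgf2* is listed on chromosome 3 from 37247238 to 37318512 together with *Nudt6*, an antisense gene whose annotation overlaps that of *Fgf2* by 468 bases. *Nudt6* was at 7.36 FPKM in wild-type and 6.21 FPKM in miR-21-/- glands, a log2 ratio of -0.24, against 0.16 for *Fgf2*. The study's methods name a TruSeq RNA kit with random hexamer priming and mention no step that keeps the strand. Counting by strand is not stated either, so reads from the overlap of such a pair cannot be told apart.

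*Fgf10* has 2 entries in the table at the same coordinates, chromosome 13 from 119470692 to 119581380, and they differed. The value above is that of the more abundant entry. The second entry was at 8.54 FPKM in wild-type and 4.08 FPKM in miR-21-/- glands, 2.09-fold lower without miR-21 and a log2 ratio of -1.07. It was thus past the limit, while the first entry was not. Summed over both entries *Fgf10* was at 33.2 and 24.9 FPKM, a log2 ratio of -0.42. The change of its share among the ligands was then -12.5 percentage points, against -9.82 with the first entry alone. The table lists each chromosome in successive runs of loci. The first *Fgf10* entry lies in a run where 363 of 372 genes of known strand are on the plus strand, the strand of *Fgf10*. The second lies in a run where 405 of 411 are on the minus strand. GENCODE annotates a noncoding transcript on the minus strand inside *Fgf10*, Gm16263, from 119484099 to 119504203. The strand of the second entry is not written in the table, and the methods mention no step that keeps the strand of the reads. Which transcript the second entry measures was not tested. Another 6 entries without a name share these coordinates, and 5 of them were lower and 1 higher in miR-21-/- glands, with log2 ratios from -1.09 to 0.16 and summed values of 10.4 and 6.68 FPKM.

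**Figure D2:**
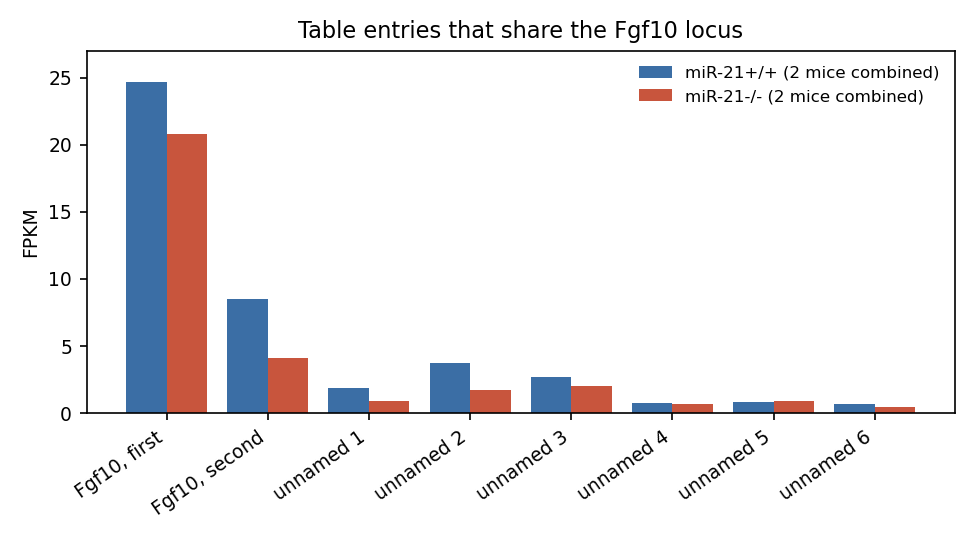
FPKM (bars from 0) of the 8 table entries at the *Fgf10* coordinates in wild-type and miR-21-/- glands, each bar a value that combines 2 mice, without error bars. The first named entry stood at 24.7 and 20.8 FPKM and the second at 8.54 and 4.08 FPKM, and of the 6 unnamed entries 1 was higher in miR-21-/- glands.

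None of the 5 receptors passed 1.5-fold. *Fgfr1*, the main receptor of fat pad and stroma, was at 51.2 FPKM in wild-type and 60.8 FPKM in miR-21-/- glands, a log2 ratio of 0.25. *Fgfr2*, whose epithelial form receives *Fgf7* and *Fgf10*, was at 26.3 and 24.8 FPKM, a log2 ratio of -0.08. The table marks the quantification of both genes as failed in the authors' comparison, and both values carry that limit. The same mark is on 8.72% of named loci at a mean of 1 FPKM or more. Among the pathway and marker genes named below it is on *Fgf11*, *Hspg2*, *Sulf2* and *Esr1*. Of the markers counted below as past the limit it is on 1 each of the fibroblast, brown fat and muscle lists. *Fgfr3* was at 3.68 and 4.32 FPKM, a log2 ratio of 0.23.

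*Fgfr4*, the receptor best known from liver and muscle, was barely present at 0.277 and 0.282 FPKM. *Fgfrl1*, a receptor-like protein without a kinase domain that can hold ligand, was the second most abundant gene of the group at 36.4 and 37.2 FPKM, a log2 ratio of 0.03. Among the kinase receptors *Fgfr1* made up 62.9% of the summed FPKM in wild-type and 67.4% in miR-21-/- glands, and *Fgfr2* 32.3% and 27.5%. The epithelial and mesenchymal splice forms of the receptors are merged in this gene-level table. GENCODE lists 20 coding transcripts for *Fgfr2* and 7 each for *Fgfr1* and *Fgfr3*, and their balance was not measured here.

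In both genotypes the receptor genes were listed on chromosome 8 from 26628928 to 26687640 (*Fgfr1*), chromosome 7 from 137305664 to 137410322 (*Fgfr2*), chromosome 5 from 34064373 to 34079957 (*Fgfr3*) and from 109123248 to 109136731 (*Fgfrl1*), and chromosome 13 from 55254179 to 55270120 (*Fgfr4*). The ligand *Fgf18* was listed on chromosome 11 from 33016954 to 33047400 and *Fgf1* on chromosome 18 from 38998326 to 39130928.

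Set against all named loci, the share of FGF genes past the limit was near the background. Of the 10 genes 1 (*Fgf7*) was at least 1.5-fold higher and 0 were at least 1.5-fold lower in miR-21-/- glands. Among 13301 named loci at a mean of 1 FPKM or more and above 0 in both genotypes, 10.9% passed this limit, 5.03% higher and 5.83% lower. The share depends on the level of the gene. It was 17.1% among loci with a mean of 2 to 5 FPKM, where *Fgf7*, *Fgf18* and *Fgfr3* lie, 6.58% at 5 to 20 FPKM, where *Fgf1* and *Fgf2* lie, and 7.83% at 20 FPKM and over, where *Fgf10*, *Fgfr1*, *Fgfr2* and *Fgfrl1* lie. In its class 14.3% of loci differed by at least as much as *Fgf7*, and 8.25% by at least as much as *Fgf1*. Of the 6 genes above 5 FPKM in at least one genotype 0 passed, against 8.17% of all loci above that level.

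The median log2 ratio of the 10 genes was 0.10, against -0.03 over the named loci. By the deposited values 7 had a ratio above 0 and 3 one below 0, but the direction depends on the scaling of the columns. The wild-type column summed to 759295 FPKM over all loci and the miR-21-/- column to 1175603 FPKM. Over named loci alone the sums were 380567 and 355385 FPKM. The excess of the miR-21-/- column thus lies in the 8023 loci without a gene name. Scaling to equal sums over all loci shifts every log2 ratio by -0.63, that of every named locus included. This turned *Fgf1*, *Fgf2*, *Fgfr1*, *Fgfr3*, *Fgfr4* and *Fgfrl1* to lower and left *Fgf7* as the only gene above 0, at 0.02. The share of all named loci past 1.5-fold under this scaling was not computed. With equal sums over named loci, a shift of 0.10, *Fgfr2* turned to 0.02 and both *Fgf7* and *Fgf1* passed 1.5-fold, at 0.75 and 0.62. All other values here are as deposited.

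**Figure D3:**
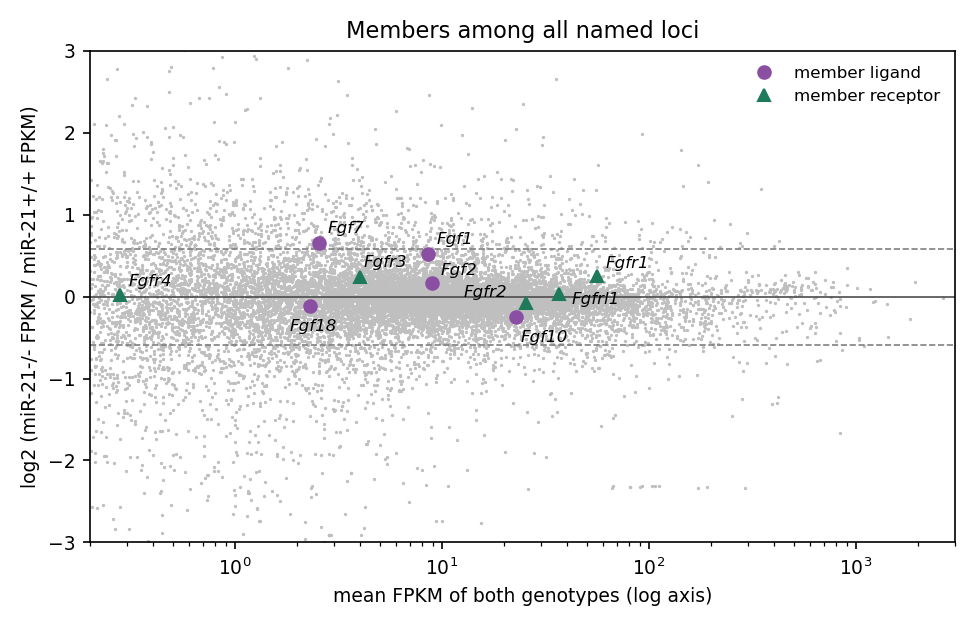
Log2 ratio of miR-21-/- to miR-21+/+ FPKM against the mean FPKM (log axis) for named loci (grey points) with the ligands as circles and the receptors as triangles. Dashed lines mark 1.5-fold, and 71 loci fall outside the axes. By the deposited values *Fgf7* alone lies past a dashed line, at 0.65, in a range of levels where the grey points scatter widely.

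Among the 17 other FGF genes, only *Fgf13* and *Fgf11* reached a mean of 1 FPKM. Both encode intracellular FGF homologous factors that are not secreted. *Fgf13* was at 7.33 and 6.67 FPKM and *Fgf11* at 4.89 and 5.78 FPKM, and neither passed 1.5-fold. *Fgf3*, *Fgf8* and *Fgf15* were listed at 0 in wild-type glands and at up to 0.0996 FPKM in miR-21-/- glands. These last 3 were named after their values were seen.

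The coreceptors and proteoglycans that present FGFs held 2 of the larger differences. Of 14 measured genes of this kind 2 were at least 1.5-fold lower and 0 higher in miR-21-/- glands (14.3%, beside 10.9% of named loci). The median log2 ratio of the 14 genes was -0.09. *Klb* (beta-klotho), the coreceptor through which fat cells sense endocrine FGFs, was at 11.3 FPKM in wild-type and 5.40 FPKM in miR-21-/- glands, a log2 ratio of -1.06. *Sdc1* (syndecan-1), a heparan sulfate proteoglycan of epithelia and plasma cells, was at 57.6 and 30.8 FPKM, a log2 ratio of -0.90. The abundant basement membrane proteoglycan *Hspg2* (perlecan) was at 60.0 and 55.3 FPKM and *Sdc4* at 52.0 and 46.1 FPKM, both within the limit. Relative to *Fgfr1* in the same column, *Klb* stood at 0.220 in wild-type and 0.0889 in miR-21-/- glands.

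The enzymes that build and trim heparan sulfate and the signal carriers inside the cell did not pass the limit. Of 14 measured heparan sulfate enzymes 0 passed in either direction, beside 10.9% of named loci, and their median log2 ratio was 0.02. The most abundant were *Sulf2*, an extracellular sulfatase, at 38.6 and 37.6 FPKM, and *Extl3*, which starts the chains, at 26.9 and 30.4 FPKM. Of 20 measured adaptors and kinases 0 passed, beside the same 10.9%, and their median was 0.04. *Mapk3* (ERK1), listed as a merged locus with *Gdpd3*, was at 59.6 and 61.9 FPKM. The adaptor *Shc1*, listed as a merged locus with *Pygo2*, was at 40.5 and 43.7 FPKM.

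The transcripts known to respond to FGF-ERK signalling included differences in both directions. Of 12 measured genes 4 were at least 1.5-fold higher and 1 lower in miR-21-/- glands (41.7%, beside 10.9% of named loci), and their median log2 ratio was 0.24. *Etv4*, an Ets factor of the PEA3 family, was at 7.74 FPKM in wild-type and 3.51 FPKM in miR-21-/- glands, a log2 ratio of -1.14. Its relative *Etv5* was at 9.19 and 8.64 FPKM, a log2 ratio of -0.09, and *Dusp6*, the ERK phosphatase, at 18.3 and 16.7 FPKM, a log2 ratio of -0.13. Of these 3, *Etv4* alone passed the limit.

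The transcripts that were higher, like the others of this list, also answer to signals other than FGFs. What lay behind the differences in either direction was not tested. The immediate early genes *Egr1* and *Fos* were at 7.89 and 16.0 FPKM and at 6.95 and 13.0 FPKM, log2 ratios of 1.02 and 0.90. *Phlda1* was at 12.9 and 26.8 FPKM, a log2 ratio of 1.05, and *Dusp5*, another ERK phosphatase, at 1.90 and 3.28 FPKM, a log2 ratio of 0.79. *Ccnd1* (cyclin D1), the most abundant of the group, was at 49.1 and 41.8 FPKM, a log2 ratio of -0.23.

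Of 7 measured Sprouty, Spred and Sef feedback inhibitors 1 was at least 1.5-fold higher and 1 lower (28.6%, beside 10.9% of named loci). *Spred3* was at 2.77 and 4.37 FPKM, a log2 ratio of 0.66. *Spry4* was at 4.60 and 2.98 FPKM, a log2 ratio of -0.63, in the more abundant of its 2 entries. Both genes lie at a mean of 2 to 5 FPKM, where 17.1% of named loci passed, and their folds of 1.58 and 1.54 are close to the limit. The inhibitors that carry the 8mer sites printed above were within the limit. *Spry1* was at 12.5 and 10.5 FPKM and *Spry2* at 8.32 and 9.86 FPKM, log2 ratios of -0.26 and 0.25, and with equal sums over all loci the ratio of *Spry2* was below 0 as well. *Spred1*, the most abundant inhibitor, was at 19.8 and 18.3 FPKM. Over all 6 lists 9 of 69 measured genes (13.0%) passed 1.5-fold, beside 10.9% of named loci.

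**Figure D4:**
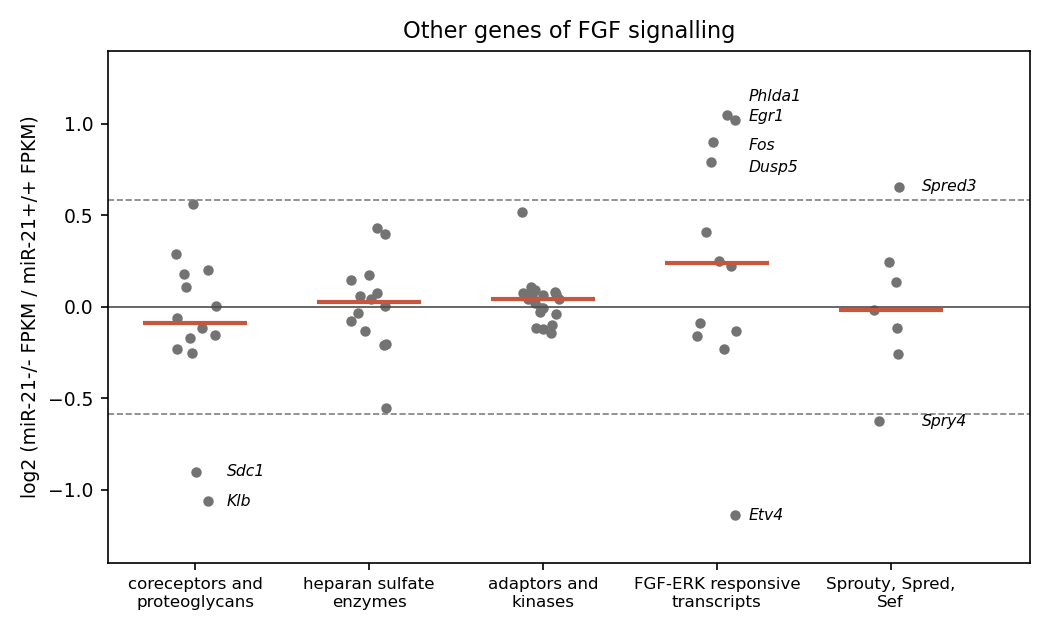
Log2 ratio of miR-21-/- to miR-21+/+ FPKM for the genes of 5 lists at a mean of 1 FPKM or more (points), with the median of each list (bar) and dashed lines at 1.5-fold. Each point rests on 1 value per genotype as deposited. The adaptors and kinases lie from -0.14 to 0.52 with a median of 0.04, and the FGF-ERK responsive transcripts reach from -1.14 for *Etv4* to 1.05 for *Phlda1*.

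Markers of the cell types that make or receive FGFs also differed between the genotypes. In whole tissue, fewer cells of a type and less RNA per cell cannot be told apart. Among named loci at a mean of 1 FPKM or more 10.9% passed 1.5-fold by the deposited values, 5.03% higher and 5.83% lower. Of 10 luminal epithelial markers 3 passed 1.5-fold upwards in glands without miR-21 and 0 downwards (30%). Their median log2 ratio was 0.52 and summed values of 671 and 919 FPKM. Of 8 basal and myoepithelial markers 5 were higher and 0 lower (62.5%), with a median of 0.66 and sums of 355 and 570 FPKM. In the luminal list 9 log2 ratios were above 0 and 1 was below. The lowest was -0.50 for *Esr1*, the estrogen receptor, whose quantification is marked as failed. The highest was 2.30 for *Pgr*, the progesterone receptor, at 4.71 and 23.3 FPKM. The keratins *Krt19*, *Krt18* and *Krt8* of this list had log2 ratios of 0.15, 0.55 and 0.72. The level of *Fgfr2* relative to these keratins therefore depended on the keratin, with ratios of 0.118 to *Krt19* in wild-type and 0.1004 in miR-21-/- glands, of 0.177 and 0.115 to *Krt18*, and of 0.221 and 0.126 to *Krt8*. Its ratio to the basal keratin *Krt5* was 0.884 and 0.581. Of 8 fibroblast markers 1 was lower and 0 higher, and this share of 12.5% was near that of named loci. The fibroblast list had a median of -0.23 and sums of 5362 and 4627 FPKM, beside -0.25 for *Fgf10* and 0.65 for *Fgf7*.

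By the deposited values the brown fat, lymphoid, muscle and basal lists had medians farther from 0 than any FGF gene in its more abundant entry. The second *Fgf10* entry, at -1.07, lay farther from 0 than the muscle and basal medians. Of 8 adipocyte markers 1 was higher and 0 lower (12.5%, beside 10.9% of named loci), with a median of -0.34 and sums of 18268 and 13892 FPKM. All 4 measured brown fat markers were lower, with a median of -1.68 and sums of 103 and 30.6 FPKM, among them *Ucp1* at 43.3 and 8.48 FPKM, beside the lower *Klb*. Of 7 lymphoid markers 6 were lower, with a median of -2.09 and sums of 133 and 67.3 FPKM, beside the lower *Sdc1*. These lymphoid sums include *Cd79a* at 70.3 and 48.3 FPKM, listed as a merged locus with *Arhgef1*. Of 7 skeletal muscle markers 6 were higher, with a median of 0.89 and sums of 1030 and 1706 FPKM. Of 6 endothelial and 5 macrophage markers 0 passed, with medians of 0.07 and -0.04 and sums of 167 and 175 FPKM and of 416 and 409 FPKM. The macrophage sums include *Cd68* at 255 and 252 FPKM, listed as a merged locus with *Eif4a1* and *Senp3*. None of these markers was listed at 0 in either genotype. Over all 63 markers 15 were higher and 11 lower by the deposited values, against 4 higher and 32 lower with equal sums over all loci. The share of all named loci past the limit under that scaling was not computed. Its shift of -0.63 alone takes a locus with equal deposited values past the limit. The part of these shifts in the values of the FGF genes was not tested.

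**Figure D5:**
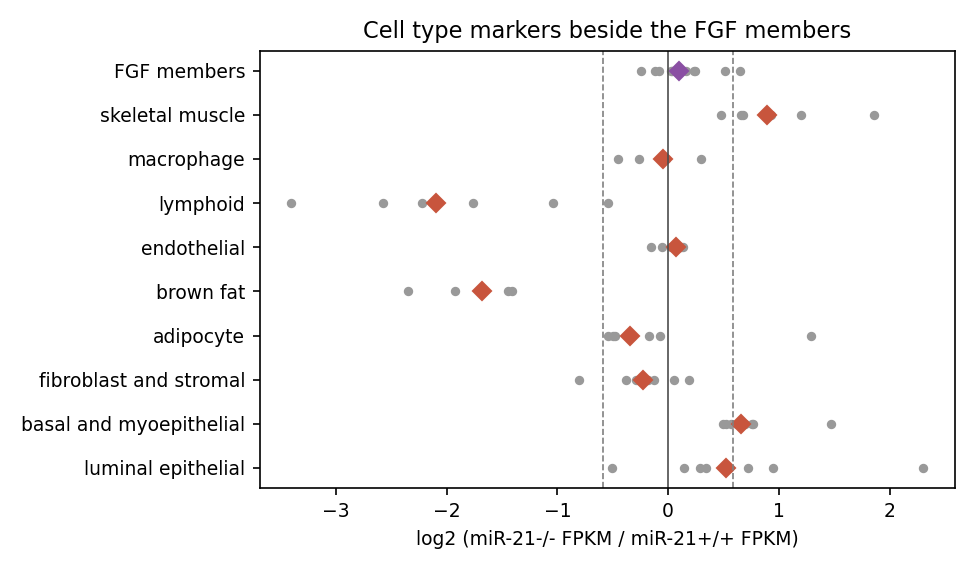
Log2 ratio of miR-21-/- to miR-21+/+ FPKM for 9 lists of cell type markers and the 10 FGF genes, each point a gene and each diamond the median of its list, with dashed lines at 1.5-fold. By the deposited values the FGF genes lie within -0.25 to 0.65, while the lymphoid and brown fat medians lie at -2.09 and -1.68 and the luminal, basal and muscle medians at 0.52, 0.66 and 0.89. With equal sums over all loci every point would lie lower by 0.63.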

How the data were processed

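Poly(A) RNA of 4 mice was sequenced as single-end reads. Per the submitters' processing notes CASAVA and TopHat were used with mm9, and the study's methods add Cufflinks. Versions, gene models and normalization options are not given in the sources used here. The authors deposited a Cuffdiff table with one FPKM value per genotype, and no column per mouse was used. Its columns of fold changes, test statistics, p-values and q-values hold the authors' own comparison and were not used.

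For a gene with several entries the one with the highest mean FPKM was kept. The log2 ratio is that of the miR-21-/- to the miR-21+/+ FPKM, without a pseudocount. Lists were described over genes at a mean of 1 FPKM or more, beside all named loci at that level. Table starts count from 0, and 1 was added. Named are the 10 genes, every pathway gene past 1.5-fold, the 2 most abundant of each pathway list, the 3 most abundant of each marker list, *Spry1*, *Spry2*, *Spry4*, *Etv4*, *Etv5* and *Dusp6* (not every marker so allowed is named). *Esr1*, *Pgr*, the *Mir21* locus and genes with a seed site were named after their values were seen. So were genes that share a locus with an FGF gene and other FGF genes listed at 0. The members and lists were chosen with earlier results of these data known. No protein sequences were used here. The site of 1 pathway gene is not reported here.

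Seed sites were searched in GENCODE 3′ UTRs of mm9. The fold counts and the site search were checked on simulated data. Python 3.11.15, numpy 2.4.6, pandas 2.3.3 and matplotlib 3.10.9 were used. Alternatives were pseudocounts of 1 and 0.1, 3 scalings, a looser and a 2-fold limit, other FPKM minimums, other rows and other site types.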

Additional observations from a re-analysis of the deposited data

How the results depend on the processing

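No paired analysis was possible because both mice of a genotype are merged into 1 column. Leaving out each mouse, the replicate block and a fit per mouse were not run on that account. The table gives no depth, so the error of low values such as that of *Fgf7* was not estimated. A change of the ratio counted as a move when it exceeded the spread of log2 ratios among named loci of like level.
Pseudocounts of 1 and 0.1 and centring the median of named loci at 0 kept the direction of all 10 genes, and with the pseudocount of 1 the number at least 1.5-fold higher fell from 1 to 0. Scaling to equal sums over all loci moved all 10 ratios. Their median became -0.53, 0 genes were at least 1.5-fold higher and 5 lower, and among the markers 4 were higher and 32 lower, in place of 15 and 11. No share of all named loci was computed under this scaling to set beside these counts. Its shift of -0.63 is larger in size than the log2 of the limit, 0.58. A locus with equal deposited values thus counts as lower. Equal sums over named loci gave 2 genes at least 1.5-fold higher, as did a looser fold limit, while a limit of 2-fold and a minimum of 5 FPKM in at least one genotype gave 0. The second *Fgf10* entry in place of the first, an alternative chosen after seeing the data, gave 1 gene lower. Without an FPKM minimum 9 of 84 pathway genes were higher and 4 lower, in place of 5 and 4 of 69. With a pseudocount of 1 there were 3 higher and 3 lower of 69. No share of named loci was computed for these 2 settings. Of 59 pathway genes above 5 FPKM in at least one genotype 3 were higher and 3 lower, beside 3.85% and 4.32% of named loci. Leaving out loci that carry several names, also chosen after seeing the data, kept the counts of pathway genes at 5 higher and 4 lower. These counts follow from each limit or shift. The absence of seed sites in the 10 genes held under both other site searches.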

Other observations

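The double entry of *Fgf10* is not particular to this gene. A set of 347 gene names have 2 or more entries at the same coordinates, and 172 pairs of such entries had a mean of 1 FPKM or more in both. In 160 of these 172 pairs the entries lay in the first and second runs of loci of their chromosome. The strand of the genes in these runs was looked at for chromosome 13 only. The log2 ratios of the 2 entries of a pair differed by a median of 0.19, against 0.82 for *Fgf10*, where the less abundant entry was the lower by that amount. In 8 of the 172 pairs (4.65%), *Fgf10* included, the difference was at least as large. Among the 33 pairs whose less abundant entry had a mean of 5 FPKM or more, *Fgf10* was the only 1 that differed by this much. The less abundant entry had the lower log2 ratio in 85 of the 172 pairs. These values were examined after the *Fgf10* entries had been seen, and what the second entries measure was not tested.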
